A study of Homo sapiens with 6 samples.

Results

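The genes described here are a set of 35 human genes of epithelial cell junctions and epithelial surface proteolysis, chosen by name: claudins and other tight junction proteins, desmosomal proteins, the membrane proteases ST14 and PRSS8 with their inhibitors, and a few further epithelial genes such as EPCAM. All probe sets that the platform annotation pairs with 1 gene of the set were taken, which gave 72 probe sets for 34 of the 35 genes, out of 41091 probe sets for 19775 genes in all. F11R had no such probe set. The study hybridised total RNA to 6 Affymetrix arrays, a sample each. Of these, 3 held untransfected MDA-MB-231 cells, an established line of invasive, mesenchymal-like human breast tumour cells without oestrogen receptor. The other 3 held samples labelled wtCopFry, from 231wCFry, which the labels describe as a single stable clone of that line. By the same labels it carries the wild-type Fry cDNA of the COP rat, was selected with puromycin, and was picked for a Fry level like that of the mammary epithelial line MCF10A. Both lines grew as monolayers in the same medium to 70% confluence, no empty-vector clone is described, and per the series' design text the samples of each line differed in passage number, which is given for none of them. Apart from passage number the labels name no separate cultures, so the p-values below measure only the spread between these samples. That spread can hold differences of passage and technical differences, whose shares are not known. They do not measure the spread between clones.

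Tight junctions seal the space between epithelial cells. Claudins and the MARVEL-domain proteins, occludin among them, span the membrane, and scaffold proteins such as ZO-1 tie them to actin. Desmosomes fasten neighbouring cells through cadherins of the desmoglein and desmocollin families, which plakoglobin, plakophilins and desmoplakin link to intermediate filaments. The membrane-anchored serine proteases matriptase (ST14) and prostasin (PRSS8) act on epithelial surfaces and are held in check by the Kunitz-type inhibitors SPINT1 and SPINT2. Mesenchymal-like breast tumour lines such as MDA-MB-231 are known for weak expression of many of these genes.

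The values are MAS5 signals in arbitrary units, scaled by the authors to the same trimmed mean on every array, and the number of arrays limits their precision. Changes are on the log2(signal + 16) scale, labelled wtCopFry minus not transfected, which understates the change of dim genes. A gene passed where its probe set with the highest mean had an adjusted p under 0.05 (limma, Benjamini-Hochberg over all 32771 tested probe sets). A group was at background where each of its 3 arrays read no more than that array's brightest unspiked bacterial control (27 probe sets, with a maximum of 2.5 to 4.9), and "at least" marks a fold computed against that level. Pearson's correlation between arrays, across tested probe sets, which are not independent replicates, was 0.992 to 0.995 within groups and 0.869 to 0.874 between groups.

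The labels were read against marker genes first. Human FRY was dim, at most 9.8 on any array over its 4 probe sets, and since the cDNA is of rat these probe sets do not check the transgene. All lay under the filter on low values. In the limma fit with no filter, one fell from 8.27 ± 2.08 to background (0.37 ± 0.25, adjusted p = 9.72e-04). Another fell from 6.3 ± 1.71 to background (2.7 ± 0.5, adjusted p = 0.040), and the rest did not pass. Of 10 markers of MDA-MB-231, VIM, which encodes vimentin, and MSN did not pass, CD44 rose and 7 fell, with KRT19 at background on all 3 arrays labelled wtCopFry. The summed signal of these 10 was 22899 to 25061 in the untransfected samples and 16014 to 19494 in those labelled wtCopFry. Of 9 tested markers of melanocytes and the neural crest, 8 rose and PMEL did not pass, and the summed signal of the 10 measured was 677 to 728 in the untransfected samples and 6628 to 7339 in those labelled wtCopFry. SOX10, a neural crest transcription factor, went from background to 1395 ± 22.3 (SD, n = 3), and S100B, MLANA and TYRP1 were likewise at background in the untransfected samples. Of the other marker lists, those of fibroblasts summed to 370 to 452 and 908 to 1015 (8 genes, of which 3 rose and 3 fell). COL1A2 carried the higher sum, with means of 39.4 and 831, while COL1A1 (131 and 27.5), LUM (157 and 7.53) and PDGFRB (61.2 and 5.1) fell. Of 6 genes known to be low in MDA-MB-231, such as ESR1, 2 fell (ERBB2 and GATA3) and none rose, and they summed to 371 to 417 and 173 to 196. The markers of endothelium summed to 620 to 749 and 34.2 to 49.2 (7 genes), of keratinocytes to 796 to 883 and 989 to 1044 (6 genes), and of leukocytes to 37.7 to 47.7 and 31.3 to 43.3 (6 genes). Of 4 tested endothelial genes PECAM1, ESAM and KDR fell and TEK rose. KRT10 made up most of the keratinocyte sums (means of 829 and 901) and did not pass. KRT14, the other tested gene of that list, rose from background to 113.5 ± 4.83. Of 4 tested leukocyte genes CD14 fell and LYZ rose. The groups therefore differ in lineage markers beyond the junction genes, and the part of this in the results below was not tested. In the samples labelled wtCopFry KRT19, a marker of the line, was at background, and S100B, a neural crest marker, stood at 1770 ± 93.3. In these markers they stand apart from the untransfected MDA-MB-231 samples, although VIM and MSN did not pass. Their descent from that line rests on the labels alone. Each change below is therefore a difference between these 2 sets of samples, in which Fry, the choice of the clone and the identity of the cells cannot be told apart. RNA quality, read as the ratio of 3' to 5' GAPDH control signal, stood at 1.36 to 1.39 (untransfected) and 1.24 to 1.33 (labelled wtCopFry), and its part was not tested either.

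Most of the junction and surface protease genes that could be tested were lower in the samples labelled wtCopFry. Of the 34 measured, 17 fell, 3 rose (CLDN11, CGN and LSR), 6 did not pass, and 8 lay under the filter on low values and were not tested. In RNA from whole cultures, fewer cells that express a gene and less RNA per cell cannot be told apart. Over all genes tested, 33.1% were called lower and 34.1% higher, 13630 genes in all. Of the 17 falls, 13 were by at least 1 on the log2 scale, a size that 10.8% of all tested genes reached downward, and 2 of the rises reached 1, as did 12.3% of all tested genes upward. The median change was -0.89 over the 26 tested members and 0.01 over all tested genes. With no filter, so that all 34 are included, 18 were lower, 3 higher and 13 did not pass (background 23.2% lower and 23.7% higher of 19775 genes), and the median was -0.44. The 2 groups of arrays did not overlap in 23 of the 34 genes, lower in 19 and higher in 4, where 27.3% and 27.8% of all measured genes lay apart in these directions. The plot of signals shows every array, and the plots of changes show the spread of the set, from -5.83 for SPINT2 to 3.80 for CLDN11.

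**Figure D1:**
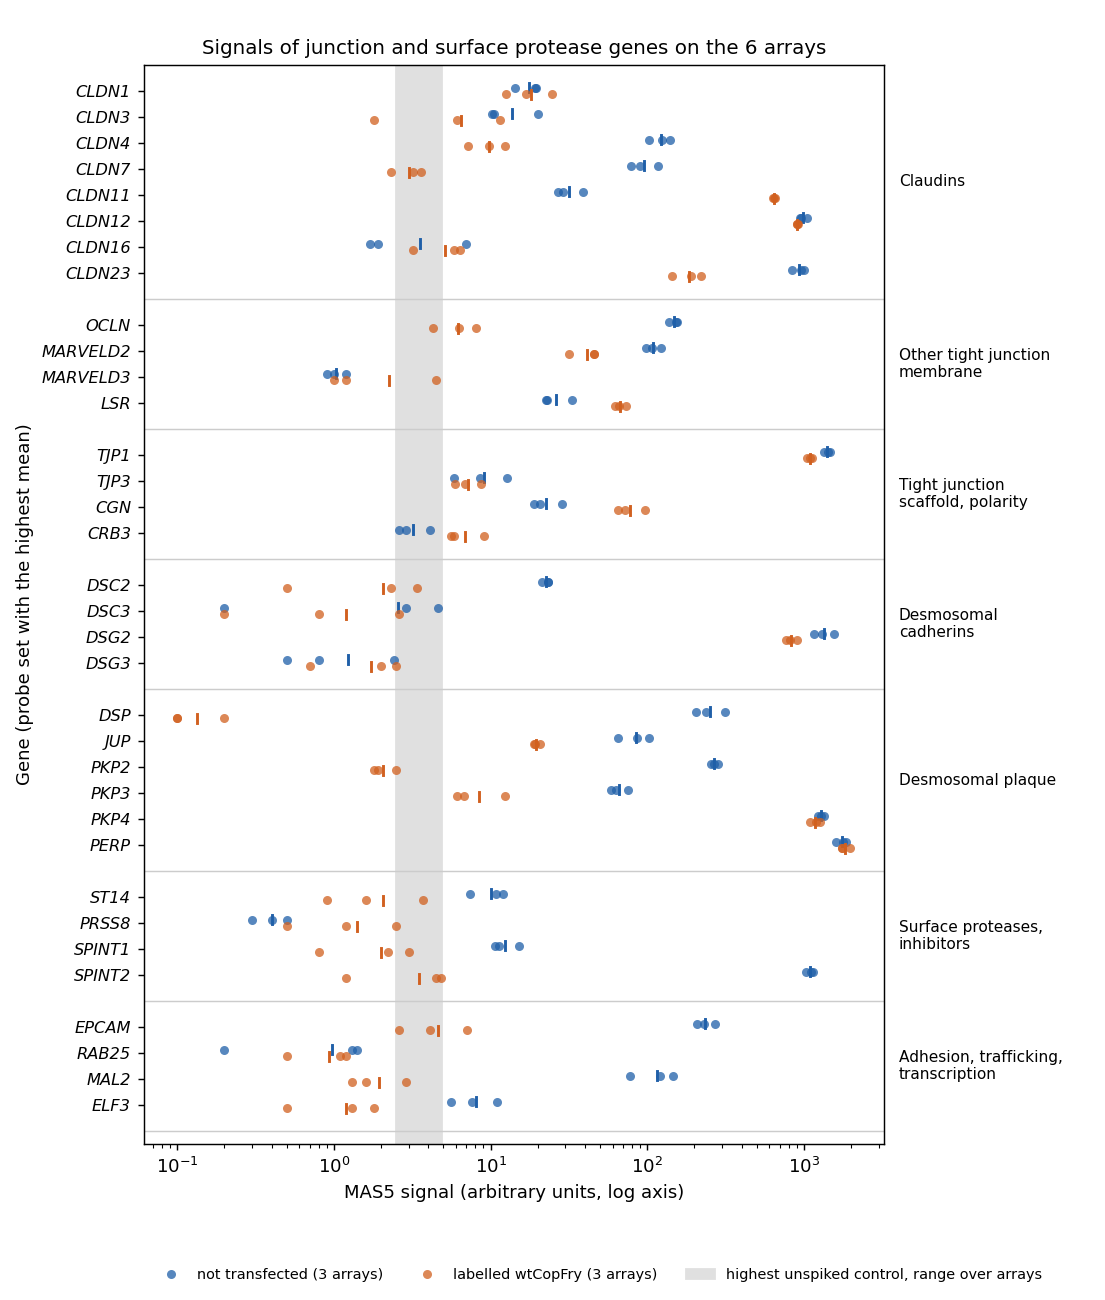
MAS5 signal (arbitrary units, log axis) of each measured gene on the 3 untransfected arrays (blue) and the 3 arrays labelled wtCopFry (orange), with group means as short vertical lines and the range of the highest unspiked control signal (2.5 to 4.9) in grey. DSP, PKP2, SPINT2, EPCAM and MAL2 lie far to the right of the grey band in the untransfected samples and in or near it, or left of it, in the others, while CLDN11 runs the opposite way.

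**Figure D2:**
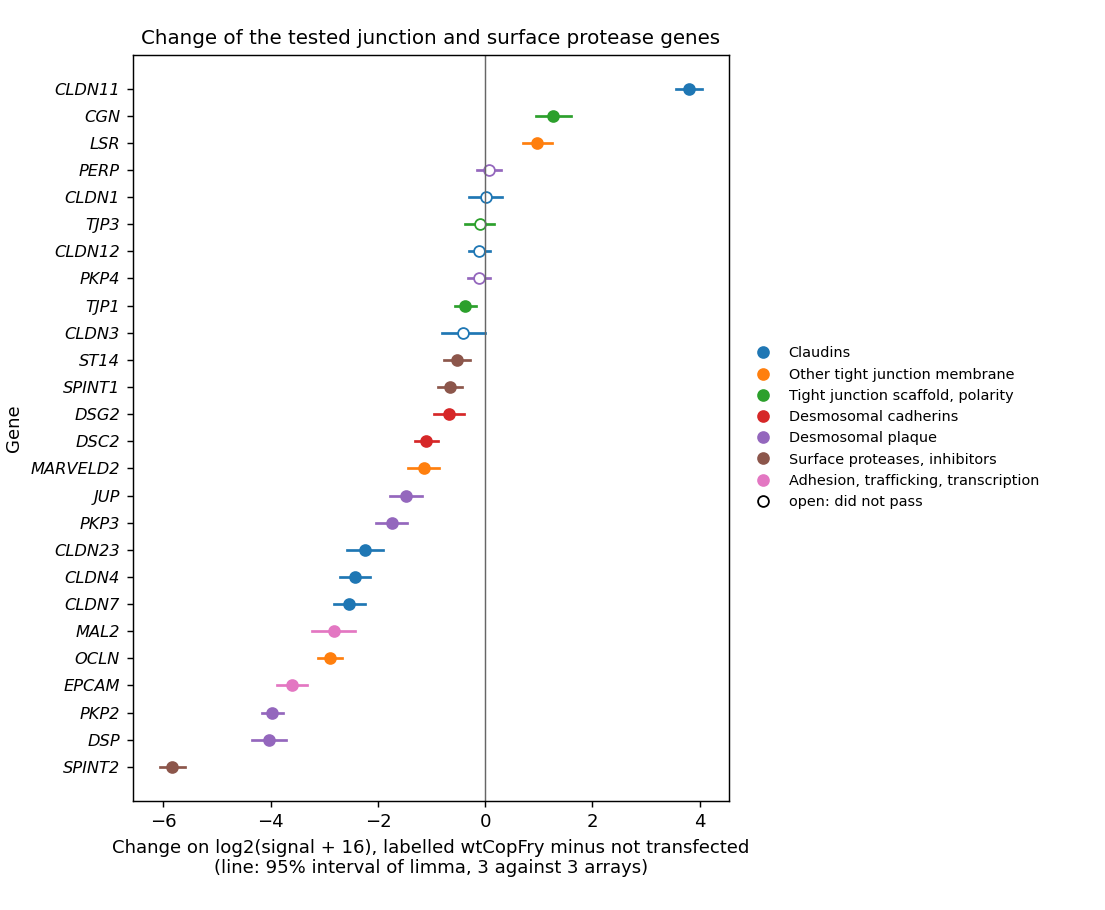
Change of the 26 tested genes on log2(signal + 16), labelled wtCopFry minus not transfected, with the 95% interval of limma (3 against 3 arrays), coloured by role, open where the adjusted p did not pass. The changes run from 3.80 for CLDN11 to -5.83 for SPINT2, and 6 genes have open points.

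**Figure D3:**
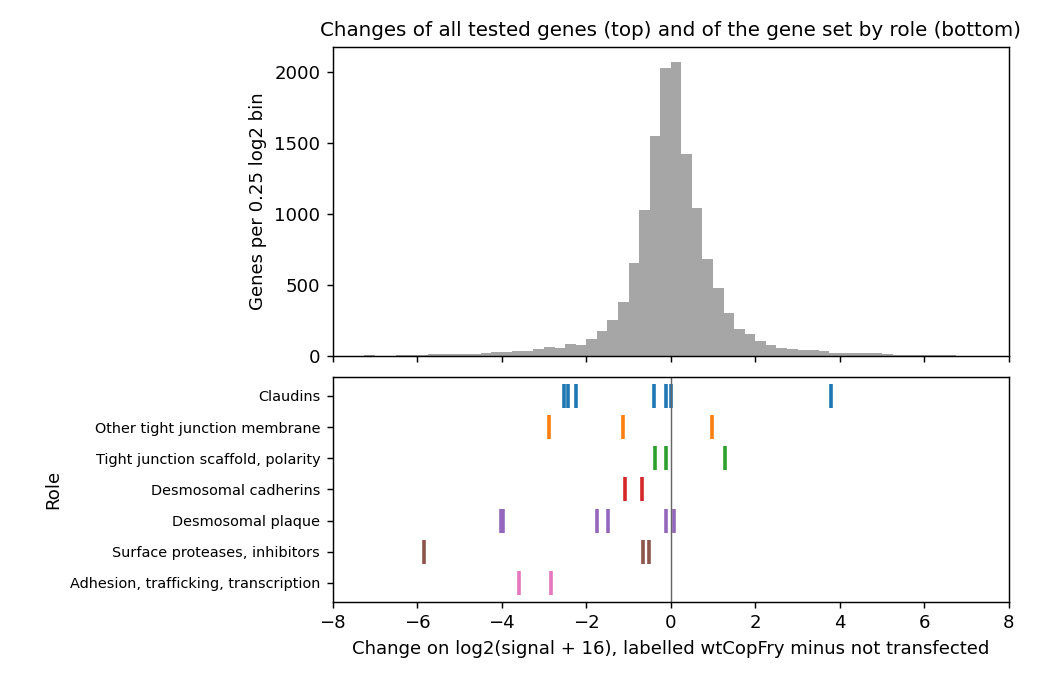
Histogram of the changes of all 13630 tested genes in bins of 0.25 log2 units (top) and the changes of the 26 tested junction and surface protease genes by role (bottom, 1 tick a gene). The histogram is centred near 0, with a median of 0.01, and the median of the 26 genes is -0.89.

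RefSeq promoter windows were available for 25 of the 35 genes, and the 250 bases before each annotated start (GRCh38.p14, 37 windows, since some genes have several starts) were searched for CACCTG on both strands, which reads CAGGTG on the other strand. CACCTG is the E-box that ZEB and SNAI proteins are known to bind in promoters of epithelial genes. It was found in 13 of the 37 windows (35.1%), against 17.5% of 35116 windows of all genes, and a gene with several starts has more chances to hold it. Of the 10 genes that fell and have a window, 8 held it in at least 1 window (CLDN7, OCLN, TJP1, DSC2, DSG2, DSP, JUP and SPINT1) and CLDN4 and MARVELD2 did not, which is 9 of their 18 windows (50%). Of all 27305 genes with a window, 20.6% held it in at least 1, and of the 25 genes of the set 12 did (48%). SPINT2, PKP2, EPCAM, MAL2, CLDN23, PKP3 and ST14 fell but have no window, so the share leaves out SPINT2, the largest fall. None of the 4 windows of the 3 genes that rose held it, and of 6 genes that did not pass TJP3 alone did. Of the 6 untested genes with a window, 3 held it (CRB3, RAB25 and ELF3), in 3 of 7 windows (42.9%), and the CRB3 window has 5 matches, so the letters are not confined to genes that fell. The palindrome AACCGGTT, the core that Grainyhead-like factors bind, was in none of the 37 windows (0.117% of all windows), and GCCNNNGGC, the core bound by AP-2 factors, was in 8 (21.6%, against 19.8% of all windows). The motifs can share letters where they overlap. These are matches of letters, not measured binding sites. The ZEB1 signal fell from 1091 ± 111 to 316 ± 3.18, that of ZEB2 rose from 161 ± 20 to 603 ± 33.8, that of SNAI1 rose from 7.37 ± 1.55 to 16.1 ± 2.86 (log2 change 0.45, adjusted p = 0.0036), and that of SNAI2 did not pass (682 ± 142 and 664 ± 149), genes named here because the motif is theirs. Windows of 3 genes that fell and of CLDN11, the gene with the largest rise, are shown 5′ to 3′ on the gene's strand, with CACCTG or CAGGTG in capitals. The CLDN7 window shown (chr17:7262479-7262728, minus strand) has 4 matches, the DSP window (chr6:7541421-7541670, plus strand) 2, the OCLN window (chr5:69492297-69492546, plus strand) 1 and the CLDN11 window (chr3:170418618-170418867, plus strand) none. CLDN7, OCLN and CLDN11 each have a second window, not shown, with 0, 1 and 0 matches.
CLDN7: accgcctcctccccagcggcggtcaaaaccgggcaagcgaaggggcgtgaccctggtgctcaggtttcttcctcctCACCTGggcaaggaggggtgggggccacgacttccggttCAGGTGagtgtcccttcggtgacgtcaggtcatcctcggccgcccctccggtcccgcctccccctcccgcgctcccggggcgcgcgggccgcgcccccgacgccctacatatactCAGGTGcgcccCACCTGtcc
DSP: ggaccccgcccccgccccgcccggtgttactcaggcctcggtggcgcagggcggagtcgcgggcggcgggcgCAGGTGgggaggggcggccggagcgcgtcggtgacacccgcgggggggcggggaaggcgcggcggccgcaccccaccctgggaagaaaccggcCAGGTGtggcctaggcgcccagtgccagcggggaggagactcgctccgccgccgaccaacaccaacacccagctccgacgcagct
OCLN: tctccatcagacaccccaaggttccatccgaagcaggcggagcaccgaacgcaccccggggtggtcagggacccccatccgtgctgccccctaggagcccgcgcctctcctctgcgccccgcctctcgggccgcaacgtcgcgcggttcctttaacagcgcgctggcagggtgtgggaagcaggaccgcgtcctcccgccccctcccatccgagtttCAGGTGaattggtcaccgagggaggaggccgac
CLDN11: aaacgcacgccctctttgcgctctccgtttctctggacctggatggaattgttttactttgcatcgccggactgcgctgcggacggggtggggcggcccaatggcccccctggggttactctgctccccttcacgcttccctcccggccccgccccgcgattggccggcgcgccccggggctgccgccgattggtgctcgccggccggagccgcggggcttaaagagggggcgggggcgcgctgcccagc

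Among claudins, the membrane proteins that form the strands of tight junctions, CLDN4, CLDN7 and CLDN23 fell, CLDN11 rose, CLDN1, CLDN3 and CLDN12 did not pass, and CLDN16 was not tested. CLDN4, a sealing claudin of many epithelia, read 124.9, 139.3 and 102.6 in the untransfected samples and 12.3, 7.2 and 9.7 in those labelled wtCopFry. The groups lie far apart, with means of 122 ± 18.5 and 9.73 ± 2.55 (SD, n = 3), and a ratio of 12.6 (log2 change -2.42, SE 0.12, adjusted p = 2.11e-07). CLDN7, which is known to form a complex with EPCAM, read 89.8, 116.7 and 79.2 and then 3.2, 2.3 and 3.6. All 3 of the latter values are at background, so CLDN7 was at least 26.7-fold lower (log2 change -2.53, SE 0.13, adjusted p = 1.71e-07). CLDN23 read 995.5, 957.5 and 834.3 against 191.1, 221.6 and 143.3, which is lower on every array but well above background (ratio of means 5.01, log2 change -2.25, SE 0.15, adjusted p = 1.18e-06). Its other probe sets both fell too, by 2.18 and 1.48 on the log2 scale.

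CLDN11, the claudin of central nervous system myelin and of Sertoli cell junctions, ran against the other claudins that passed. Its signal was 38.9, 27.0 and 29.0 in the untransfected samples and 657.0, 639.8 and 636.0 in those labelled wtCopFry. The means of 31.6 ± 6.37 and 644 ± 11.2 differ 20.4-fold (log2 change 3.80, SE 0.11, adjusted p = 4.10e-09). A second probe set of CLDN11 went from background (0.53 ± 0.21) to 10.5 ± 4.76 and passed in the fit with no filter (adjusted p = 0.0033), and its dimmest one did not. CLDN12, a broadly expressed claudin, had a high signal in both groups, with 957.2, 941.2 and 1048.9 against 919.2, 898.1 and 906.5. Its arrays do not overlap, yet the change of -0.11 did not pass (95% interval -0.31 to 0.09, adjusted p = 0.30). CLDN1 read 14.3 to 19.5 and 12.6 to 24.8, with overlapping groups (0.01, 95% interval -0.30 to 0.32, adjusted p = 0.96). CLDN3 read 10.2 to 20.2 and 1.8 to 11.5, which also overlap (-0.41, 95% interval -0.80 to -0.01, adjusted p = 0.072), and it passed without the first array labelled wtCopFry (-0.56, adjusted p = 0.020), with the mean of all its probe sets (-0.26, adjusted p = 0.046) and with the replicate number as a block (adjusted p = 0.046). The adjusted p of CLDN3 over all alternatives ran from 0.02 to 0.25.

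Among the other tight junction membrane proteins OCLN and MARVELD2 fell and LSR rose. OCLN encodes occludin, and its probe set with the highest mean read 155.6, 138.1 and 151.4 in the untransfected samples and 8.1, 6.3 and 4.3 in those labelled wtCopFry. Every array of the second group lies below every array of the first, with means of 148 ± 9.14 and 6.23 ± 1.90 (log2 change -2.89, SE 0.10, adjusted p = 1.38e-08). MARVELD2 encodes tricellulin, which sits at corners where several cells meet. It read 98.3, 122.6 and 106.8 against 45.4, 46.0 and 31.5, lower on every array by a smaller factor (ratio of means 2.67, log2 change -1.14, SE 0.13, adjusted p = 4.55e-05). LSR, the angulin that recruits tricellulin to those contacts, moved the other way. It read 23.0, 33.2 and 22.6 and then 65.5, 61.8 and 72.6, with means of 26.3 ± 6.01 and 66.6 ± 5.49 (log2 change 0.97, SE 0.12, adjusted p = 7.10e-05), and the groups do not overlap. MARVELD3 was not tested, and none of its 3 probe sets read over 4.5 on any array.

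Of the scaffold and polarity genes TJP1 fell by a small amount, CGN rose, TJP3 did not pass and CRB3 was not tested. TJP1, which encodes ZO-1, the scaffold that links occludin and claudins to actin, read 1415.5, 1342.5 and 1472.0 in the untransfected samples and 1096.1, 1041.6 and 1118.1 in the others. The groups do not overlap and the means of 1410 ± 64.9 and 1085 ± 39.4 differ by a factor of 1.30 (log2 change -0.37, SE 0.09, adjusted p = 0.0046). CGN, the cingulin that connects junctions to actomyosin, rose from 18.9, 28.6 and 20.6 to 65.4, 72.0 and 96.2. Its groups are clearly apart (log2 change 1.27, SE 0.14, adjusted p = 4.44e-05), though its second probe set read at most 3.5 on any array. TJP3, the ZO-3 gene, was dim, at 5.8 to 12.7 and 5.9 to 8.7, and did not pass (-0.10, 95% interval -0.37 to 0.16, adjusted p = 0.46). CRB3, an apical polarity protein, read 2.6 to 4.1 and 5.6 to 9.1 and was not tested. LSR and CGN are given array by array although their signals lie under the median of tested probe sets, which was decided after their values were seen.

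Of the 4 desmosomal cadherins DSG2 and DSC2 fell, and DSC3 and DSG3 were not tested. DSG2, the desmoglein of simple epithelia and most other desmosome-bearing cells, read 1153.1, 1304.6 and 1561.6 in the untransfected samples and 810.2, 769.3 and 903.2 in those labelled wtCopFry. It stayed bright in both groups, which do not overlap, with a ratio of means of 1.62 (log2 change -0.68, SE 0.12, adjusted p = 0.0011). DSC2, the widely expressed desmocollin, read 21.2 to 23.2 and 0.5 to 3.4 and fell by 1.09 on the log2 scale (SE 0.09, adjusted p = 7.70e-06). Its further probe sets read at most 7.8 on any array, were not tested, and did not pass in the fit with no filter. The cadherins of stratified epithelia were near background in both groups. DSC3 read at most 4.6 and DSG3 at most 2.5 on any array over all their probe sets.

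The plaque genes held some of the largest falls of the set beside genes that did not pass. DSP encodes desmoplakin, which anchors desmosomes to keratin filaments. It read 205.1, 312.2 and 235.4 in the untransfected samples and 0.1, 0.2 and 0.1 in those labelled wtCopFry, where it was at background on all arrays. DSP was at least 70.2-fold lower (log2 change -4.03, SE 0.14, adjusted p = 1.32e-08). PKP2, a plakophilin of simple epithelia and heart, read 284.0, 253.4 and 265.5 against 1.9, 2.5 and 1.8. It too went to background on every array (at least 75.9-fold lower, log2 change -3.97, SE 0.09, adjusted p = 8.20e-10). Its second probe set was dim, at 3.67 ± 1.80 and 1.77 ± 1.94, and lay under the filter. It did not pass in the fit with no filter (adjusted p = 0.35). PKP3, a plakophilin of most epithelia, read 58.2 to 75.4 and 6.1 to 12.3 (-1.74, SE 0.13, adjusted p = 2.15e-06). JUP encodes plakoglobin, which desmosomes share with adherens junctions. It read 65.4 to 102.1 and 18.8 to 20.7, with no overlap (-1.48, SE 0.13, adjusted p = 9.60e-06).

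PKP4, a relative of p120 catenin found at adherens junctions as well as desmosomes, did not pass on its brightest probe set, with 1286.0, 1222.4 and 1332.2 against 1191.2, 1256.1 and 1095.8 (-0.12, 95% interval -0.33 to 0.09, adjusted p = 0.30). Those groups overlap. PERP, a membrane protein of stratified epithelial desmosomes and a p53 target, read 1603.5, 1779.5 and 1846.6 and then 1751.1, 1744.6 and 1975.8 on its brightest probe set, which also overlap (0.06, 95% interval -0.16 to 0.29, adjusted p = 0.60). That probe set is of a type marked as prone to cross-hybridise, and the next one, also of such a type, disagreed. It read 201 ± 18.1 and 134 ± 5.60 and fell by 0.53 (SE 0.10, adjusted p = 0.0011). A dim one that is not of such a type read 10.2 ± 2.70 and 3.8 ± 2.59 and fell by 0.41 (adjusted p = 0.017). The call for PERP therefore depends on the probe set read.

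Among the surface protease genes the inhibitor SPINT2 showed the largest fall of all 26 genes tested. It read 1147.5, 1025.7 and 1102.0 in the untransfected samples and 4.5, 4.8 and 1.2 in those labelled wtCopFry. The second group lies around the background level and the first far above it, with means of 1092 ± 61.5 and 3.5 ± 1.997 (log2 change -5.83, SE 0.11, adjusted p = 3.25e-10). Its relative SPINT1 was dim already in the untransfected samples, at 10.6 to 15.2, and at background in the others, at 0.8 to 3.0. It was at least 3.47-fold lower (-0.65, SE 0.10, adjusted p = 3.52e-04). The protease ST14, whose activity both inhibitors limit, was dim in a like way, at 7.4 to 12 and 0.9 to 3.7, and at least 2.80-fold lower (-0.53, SE 0.11, adjusted p = 0.0019). The ST14 call did not hold for the mean of its 3 probe sets (-0.21, adjusted p = 0.059, and 0.0017 to 0.059 over all alternatives). PRSS8, the prostasin gene, read at most 2.5 on any array and was not tested.

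Of the remaining genes EPCAM and MAL2 fell, and ELF3 and RAB25 were not tested. EPCAM, an epithelial adhesion molecule, read 206.0, 228.8 and 268.7 against 2.6, 4.1 and 7.1, with no overlap (log2 change -3.60, SE 0.12, adjusted p = 1.30e-08). Matriptase is known to cleave EPCAM in intestinal epithelium, where SPINT2 restrains it. EPCAM, CLDN7, SPINT2 and ST14 all fell here, where 33.1% of all tested genes were called lower, and a link between these falls was not tested. MAL2, a membrane protein of apical transcytosis, read 120.7, 145.1 and 77.5 and then 2.9, 1.3 and 1.6. It was at background on all 3 arrays labelled wtCopFry and at least 31.4-fold lower (-2.83, SE 0.18, adjusted p = 8.13e-07). ELF3, an epithelial ETS transcription factor, read 5.6 to 10.9 and 0.5 to 1.8, and in the fit with no filter it was lower (adjusted p = 0.0047, at least 2.198-fold). RAB25, a small GTPase of epithelial recycling endosomes, read at most 1.4 on any array.

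The 8 genes under the filter were CLDN16, MARVELD3, CRB3, DSC3, DSG3, PRSS8, RAB25 and ELF3. Without the filter ELF3 alone passed, which was lower (-0.48, adjusted p = 0.0047). The other 7 read at most 9.1 on every array of their highest probe set and did not pass. CRB3 came nearest, with 2.6 to 4.1 in the untransfected samples and 5.6 to 9.1 in those labelled wtCopFry, groups that do not overlap (0.25, adjusted p = 0.054).

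Probe sets of the same gene mostly ran the same way. Of 8 genes with 2 or more tested probe sets, CLDN23, MARVELD2, TJP1 and DSG2 fell on each, and in none did tested probe sets pass in both directions. The second probe sets of TJP1 and DSG2 did not pass in the fit with no filter (adjusted p = 0.067 and 0.051). OCLN fell on 3 of 4, and the fourth, at 6.53 ± 3.64 and 5.5 ± 3.35, did not pass. PKP3 fell on the brighter of its 2. PKP4 did not pass on 3 of 4, and the dimmest, which read 14.1 ± 3.18 and 32.5 ± 2.58, rose (0.69, SE 0.10, adjusted p = 3.14e-04). Over all 40 tested probe sets of the gene set, 26 were lower and 4 higher, where 32.3% and 30.3% of all tested probe sets were. The plot of these 8 genes shows each probe set.

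**Figure D4:**
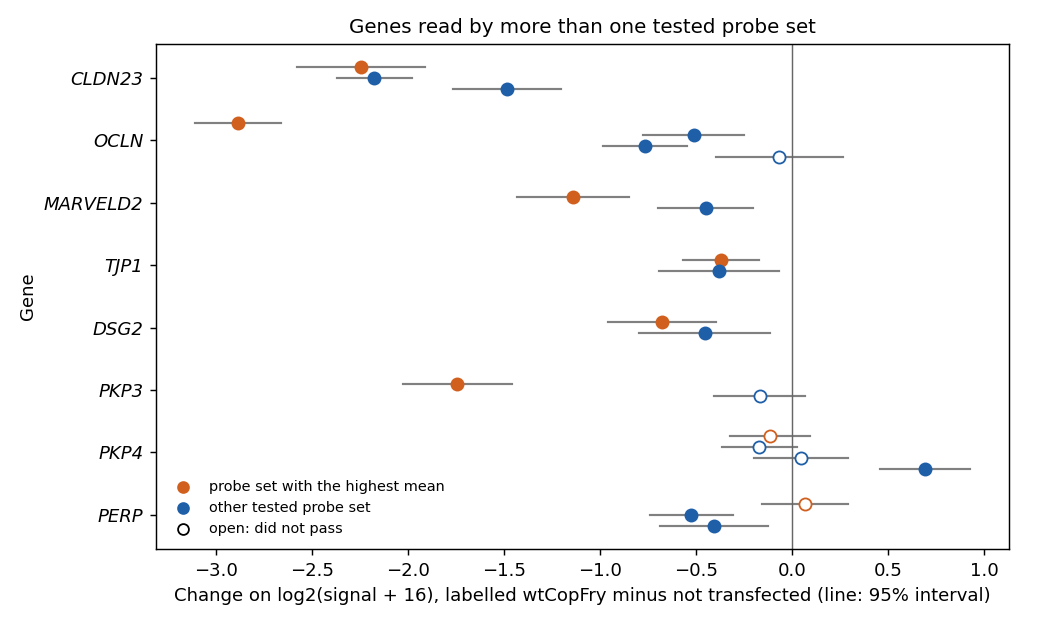
Change on log2(signal + 16), labelled wtCopFry minus not transfected, with 95% intervals, of every tested probe set of the 8 genes with more than 1, in orange for the probe set with the highest mean, in blue for the others, open where it did not pass. The PERP probe sets lie on both sides of 0 (0.06, -0.53 and -0.41), and of the 4 PKP4 probe sets the dimmest lies highest, at 0.69.

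Several of the genes are neighbours in the RefSeq order, with no coding gene between them. MARVELD2 and OCLN on chromosome 5 both fell. CLDN3 and CLDN4 on chromosome 7 differed in their calls, since CLDN3 did not pass and CLDN4 fell. On chromosome 18, DSC3 lies beside DSC2 and DSG3 beside DSG2, and DSC2 and DSG2 fell while DSC3 and DSG3 were near background in both groups. CLDN16 and CLDN1 on chromosome 3 did not pass, CLDN16 in the fit with no filter.

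Other genes of the same structures moved in both directions. Of 34 further tight junction genes measured, 20 were tested, and 8 rose, 7 fell and 5 did not pass. ILDR2, another angulin, fell from 438 ± 49.3 to 3.03 ± 1.39 (log2 change -4.57, adjusted p = 1.39e-09), while JAM3, a junctional adhesion molecule also found outside epithelia, rose from 26.5 ± 0.26 to 747 ± 102 (4.16, adjusted p = 2.36e-09). The scaffold MAGI3 fell from 160 ± 8.40 to 47.9 ± 7.99 (-1.47, adjusted p = 3.15e-06). Of 8 further desmosome genes 4 were tested. The plakins EVPL (101 ± 13 to 1.8 ± 1.78) and PPL (63 ± 24.3 to 4.53 ± 1.75), which bind desmosomes in stratified epithelia, fell by 2.72 and 1.90, and CDSN and PNN rose. CDSN, the corneodesmosin gene, went from 6.7 ± 2.05 to 19.7 ± 1.21 (0.66, adjusted p = 2.84e-04). A list of 21 further genes around surface proteolysis also holds inhibitors, growth factors and a receptor. Of these 10 were tested, and 3 rose (PRSS33, TMPRSS3 and MST1), MST1R fell and 6 did not pass. PRSS33 rose from 4.4 ± 0.95 to 262 ± 53.3 (3.75, adjusted p = 2.58e-08) and TMPRSS3 from 2.63 ± 1.87 to 41.7 ± 7.36 (1.63, adjusted p = 2.67e-06). Both are serine proteases, and no other protease of the list passed. MST1, a growth factor, rose from 9.83 ± 3.65 to 19.1 ± 2.43 (0.45, adjusted p = 0.0093). That signal is dim, and its probe set is of a type marked as prone to cross-hybridise. MST1R, a receptor tyrosine kinase, fell from 48.8 ± 1.40 to 19.2 ± 2.55 (-0.88, adjusted p = 2.71e-05).

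Of 16 epithelial and mesenchymal regulators measured, 13 were tested, and 7 rose, 3 fell and 3 did not pass. EHF, an epithelial ETS factor related to ELF3, fell from 740 ± 116 to 87.6 ± 12.6 (-2.86, adjusted p = 1.12e-07). TFAP2C, an AP-2 factor, rose from 550 ± 64.9 to 2527 ± 252 (2.17, adjusted p = 3.17e-07), and TWIST1, a mesenchymal factor, from background to 960.2 ± 131, at least 278-fold. The epithelial regulators GRHL1 and ESRP1, dim in the untransfected samples, rose too. GRHL1 went from 4.3 ± 1.97 to 33.4 ± 8.58 (1.27, adjusted p = 2.86e-05). ESRP1 went from 2.87 ± 0.71 to 23.7 ± 4.03 (1.07, adjusted p = 1.51e-05). The remaining rises were those of ZEB2, SNAI1 and TFAP2A. The 3 genes that did not pass were GRHL2, OVOL2 and SNAI2. All counts over these lists describe the lists alone, and 67.1% of all genes tested were called in either direction.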

How the data were processed

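RNA from 6 samples was hybridised to 1-colour arrays, 1 array a sample. The deposited intensity values, on a linear scale, came from MAS5 as the authors ran it, per the submitters' processing notes (version not given in the sources used here). They share the same mean on every array after trimming 2% at each end. MAS5 subtracts mismatch signal, so ratios of values near 0 are unstable.

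Probe sets were named from GEO's platform annotation. Of 54613 that are not controls, 41091 named 1 gene, 1801 several and 11721 none, and only the first were named here. Signals were taken as log2(signal + 16) without further normalization. Probe sets with a mean over 6 arrays at or above the 40th percentile (5.87) entered limma 3.58.1 (R 4.3.3; lmFit, eBayes, no covariates), and p-values were adjusted by Benjamini-Hochberg over all of them. A gene was read by its 1-gene probe set with the highest mean. Every measured gene of the set is named, and of other lists the 3 with the smallest p, beside marker genes and genes whose motif was searched. ESRP1, GRHL1, KLF5, TFAP2A and MST1 were added after their values were seen. Per-array values are given for genes whose higher group reached the median of tested probe sets (88.2), with the exceptions stated. The genes and lists were chosen with earlier results of these data known. The fit was tested on simulated data. No 2 arrays of a group had equal values for more than 2.15% of probe sets. Batch and scan date are not in the labels. Alternatives were the pseudocount, the filter, normalization, the choice of probe set, an intensity trend, a replicate block and leaving out each array. Promoter windows came from RefSeq. Figures were drawn with matplotlib 3.10.9.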

Additional observations from a re-analysis of the deposited data

How the results depend on the processing

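Over 16 alternatives, 21 of the 26 tested genes kept their direction and their side of the threshold under every one that tested them; the exceptions were CLDN1, CLDN3, PKP4, PERP and ST14. CLDN1, which did not pass in any, changed sign with a pseudocount of 1 (-0.0018), with median centring (-0.0088), with the mean of all its probe sets (-0.14), and without the third untransfected array or the first labelled wtCopFry (from -0.13 to 0.13 over the arrays left out in turn). The mean of all probe sets turned PKP4 to 0.048, where it still did not pass, and PERP to -0.22, where it passed, and PERP stood at -0.41 without the _x_at, _s_at and _a_at probe sets, which can cross-hybridise. That setting tested 18 of the members, which excludes SPINT2, EPCAM, PKP2, PKP3, JUP, CLDN3, LSR and CGN. It left 1 member called higher in place of 3, since LSR and CGN are read by _s_at probe sets. It left 13 members called lower in place of 17, and 2 member probe sets called higher and 16 lower, against 4 and 26. A 60th percentile filter left 17 member probe sets called lower, because fewer were tested. In the fit with a replicate block, 18 members were lower (CLDN3 passed) and 3 higher, and 26 probe sets were lower and 4 higher. Same-numbered arrays did not deviate together throughout (correlations of 0.07, 0.07 and 0.19), so the number was not taken as a pairing, and 4 of 6 samples correlated best with their own number. Leaving out each array in turn gave 17 to 18 members lower and 3 higher, 23 to 26 member probe sets lower and 4 higher, and over all genes 4161 to 4354 lower and 4265 to 4491 higher. Signals near background limit what can be said of the 8 untested genes.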
